A study of Mus musculus with 18 samples.

Results

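The 32 genes described here encode the enzymes that make cholesterol and fatty acids in the cell and the factors that switch those enzymes on. They were taken by gene name from a table of 55450 genes by a rule that uses no measured value, although earlier results of these data were known when the list was drawn up. All 32 passed the filter on low counts that left 21161 genes for testing. By role, 8 lead from acetyl-CoA to squalene (Acat2, Hmgcs1, Mvk, Pmvk, Mvd, Idi1, Fdps and Fdft1) and 10 lead from squalene to cholesterol (Sqle, Lss, Cyp51, Tm7sf2, Msmo1, Nsdhl, Hsd17b7, Ebp, Sc5d and Dhcr7). A further 5 belong to the switch itself (Srebf1, Srebf2, Scap, Insig1 and Insig2), 1 moves sterols between membranes (Stard4), and 8 make or desaturate fatty acids (Acly, Acaca, Fasn, Elovl6, Scd1, Scd2, Fads1 and Fads2).

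RNA sequencing was performed on mouse embryonic fibroblasts (MEF), a cultured line from a public repository, in 6 groups of 3 libraries. Cells were transfected with the empty pcDNA3 vector, with CMV-miR-29b, in which the cytomegalovirus promoter drives the microRNA miR-29b, or with Col1a1-miR-29b, in which a rat collagen 1a1 promoter drives it. From 6 h after transfection, each of these was kept for 24 h with TGF-β, a cytokine that makes fibroblasts produce matrix, or without it. All 6 groups share the cell line, the lipid reagent and the medium with serum, which itself supplies lipids. Transfection was transient, and both miR-29b vectors also carry the fluorescent reporters EGFP and mRFP1, which the empty vector lacks. DNA was given at equal molar amounts, so cells received a larger mass of the larger Col1a1-miR-29b vector than of CMV-miR-29b. The study calls the 3 libraries of a group repeated experiments, without saying more on how separate they were, so p-values measure the spread between libraries. In bulk RNA, fewer cells of a type and less RNA per cell cannot be told apart.

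Cells sense sterols in the membrane of the endoplasmic reticulum. When sterols are scarce, Scap carries the SREBP proteins, encoded by Srebf1 and Srebf2, to the Golgi, where they are cut, and the released part enters the nucleus and raises transcription of the synthesis genes. When sterols are plentiful, Insig1 and Insig2 hold Scap back. SREBP binds a sterol regulatory element (SRE) in the promoters of its targets, usually beside sites for NF-Y, which binds CCAAT, and for Sp1, which binds GC-rich boxes.

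Sequences of 2 kinds bear on these genes: promoter sites of the SREBP pathway, and sites for the microRNA that the vectors express. RefSeq promoters of GRCm38, running from 250 bases before the start of transcription to 50 bases after it, were at hand for 25 of the 32 genes (not for Fdps, Fdft1, Sqle, Stard4, Scd1, Scd2 and Fads1), and were searched on both strands. The letters TCACNCCAC, a core of the classical SRE in which N is any base, stood in 1 of the 25 (4%) and in 1.37% of the promoters of 12362 tested genes. The CCAAT box was present in 20 of the 25 (80%), against 42.6% of all, and the GC box GGGCGG in 21 (84%), against 62.9%. None of these motifs contains another, and a match describes the letters alone. For 16 of the 20 genes, the CCAAT box nearest to the start of transcription lay within 100 bases of it. The promoter with the SRE core belongs to Hmgcs1, and it is shown with the CCAAT boxes of 5 genes that recur in the results, the matched letters in capitals and each read on the strand that carries the motif.
Hmgcs1, SRE core, chr13:119690204-119690232, plus strand: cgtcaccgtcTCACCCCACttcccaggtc
Mvk, CCAAT box, chr5:114444245-114444269, minus strand: cttcctgaggCCAATcagagagctg
Pmvk, CCAAT box, chr3:89454395-89454419, plus strand: ctcaggttggCCAATtcacagcatc
Cyp51, CCAAT box, chr5:4104712-4104736, minus strand: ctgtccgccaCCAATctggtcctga
Nsdhl, CCAAT box, chrX:72918519-72918543, minus strand: tctggcgcaaCCAATtgacgctcac
Sc5d, CCAAT box, chr9:42264310-42264334, plus strand: aggcagccggCCAATcagcagccgg

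MicroRNAs pair with messenger RNAs through their seed, bases 2 to 8, in capitals below for the mouse miR-29b-3p of RefSeq. The matching 7 letters, TGGTGCT, occurred in the longest annotated 3' UTR of 5 of the 32 genes (15.6%; Hmgcs1, Fdft1, Cyp51, Insig1 and Scd1) and of 14.8% of 14375 tested genes with such a UTR. The median UTR length was 1525.5 bases among the 32 genes and 1096 bases among all. Of these, 3 sites are shown with flanks from the GENCODE annotation of GRCm38, the pairing letters in capitals, since their genes are among those that differed between vectors.
mmu-miR-29b-3p: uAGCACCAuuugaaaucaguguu
Hmgcs1, 3' UTR, chr13:119707571-119707599, plus strand: tggatgattttTGGTGCTgaacaatgaca
Cyp51, 3' UTR, chr5:4082218-4082246, minus strand: tgttgctggagTGGTGCTgcacacctgta
Insig1, 3' UTR, chr5:28077188-28077216, plus strand: agggaggttgaTGGTGCTtaacagagatg

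Total counts per library ran from 65898017 to 80332633, and values below in CPM are counts scaled to a total of 1000000 per library, with TMM factors. Mir29b-1, for which poly(A) libraries count transcripts that carry the precursor rather than the mature microRNA, had 0 counts in every empty vector library, 0 to 1 in untreated and 2 to 6 in treated Col1a1-miR-29b cells, and 110 to 309 in CMV-miR-29b cells. The insert of the vectors is the human miR-29b-1 sequence, whereas reads were aligned to the mouse genome. How fully reads of the insert were counted under the mouse gene is not given in the sources used here. The TGF-β targets Ccn2 and Acta2 were higher with TGF-β in each vector (adjusted p at most 5.67e-06 in edgeR's quasi-likelihood test), whereas Tgfbi was under 1 CPM throughout. Of 8 fibroblast markers, 7 exceeded 1 CPM in every library, and Thy1 did not reach 1 CPM in any. Adipocyte markers Adipoq, Plin1, Pparg, Cebpa and Lpl stayed under 1 CPM in every library, as did Adgre1, Csf1r and Ptprc of macrophages, Kdr and Tek of endothelium and all 4 epithelial markers. Fabp4 of adipocytes reached 1.39 CPM, Cdh5 and Pecam1 of endothelium reached 1.99 and 1.03 CPM, and Cd68 and Lyz2 of macrophages were above 1 CPM in every library. Of the markers outside fibroblasts, Fabp4 was lower with TGF-β in the mean of the 3 vectors (log2 fold change -1.57) and Cdh5 was higher (1.11), as was Krt8, which did not exceed 0.347 CPM. Their part in the results was not tested. Reads of Fdft1, Cyp51, Srebf1 and Tm7sf2 may be shared with overlapping genes (Ctsb, Akap9, Rai1 and Vps51), and those of Acat2 and the Scd genes with near-identical copies, since how the counting treated strand and multiple matches is not given in the sources used here.

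All 32 genes were clearly expressed. Per transcript length, in the FPKM values that the authors deposited, the means in empty vector cells without TGF-β ran from 2.92 FPKM for Tm7sf2, a sterol reductase (2.92 ± 0.182 FPKM, SD, n = 3), to 148 FPKM for Acly (148 ± 3.61 FPKM, SD, n = 3), which makes the acetyl-CoA that both pathways start from. The desaturases Fads2 (117 ± 3.16 FPKM, SD, n = 3) and Scd2 (116 ± 2.32 FPKM, SD, n = 3) and the demethylase Cyp51 (94.1 ± 3.59 FPKM, SD, n = 3) followed Acly. At the low end, Acaca (6.10 ± 0.328 FPKM, SD, n = 3), the carboxylase that commits acetyl-CoA to fatty acids, and Elovl6 (7.92 ± 0.0724 FPKM, SD, n = 3), which lengthens them, stood just above Tm7sf2. Of the 31 pairs of neighbours in the order of levels, 15 overlapped in the ranges of their 3 libraries, so the order is firm only between genes that lie further apart.

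**Figure D1:**
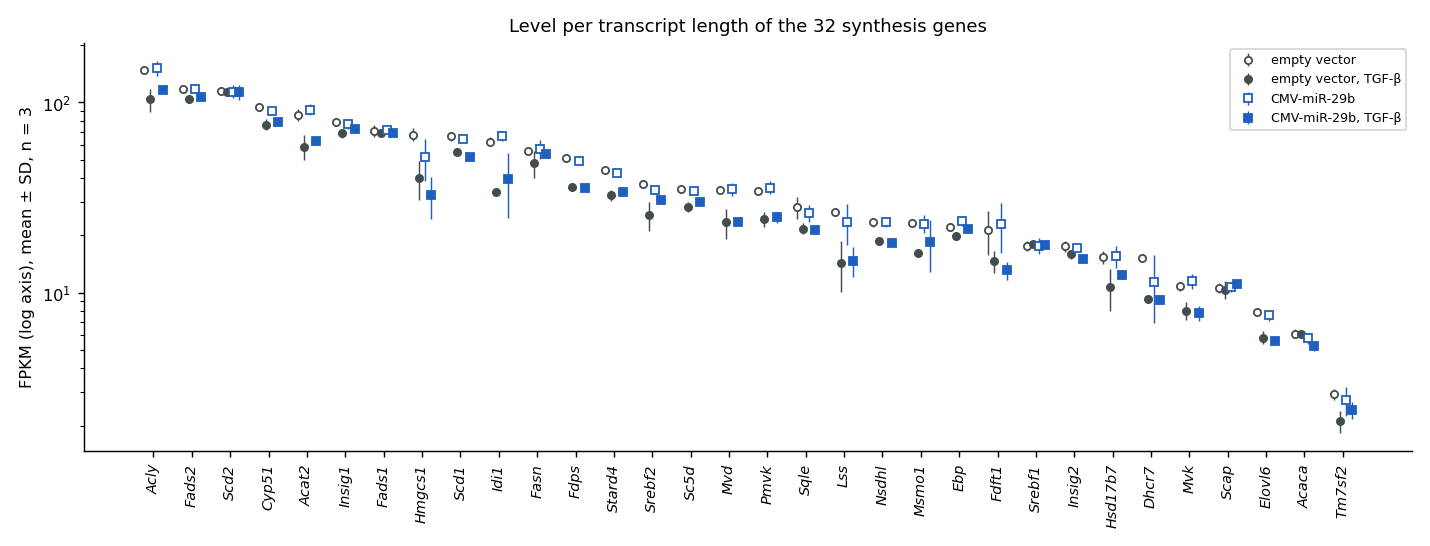
FPKM (log axis) of each of the 32 genes as mean ± SD over 3 libraries, in empty vector (circles) and CMV-miR-29b (squares) cells, open without TGF-β and filled with it. Genes are ordered by their level in untreated empty vector cells, from Acly to Tm7sf2; most filled points lie below the open ones. Col1a1-miR-29b cells are not drawn because only 2 of their 3 FPKM columns could be assigned.

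Replicates were closer for some of these genes than for others. The coefficient of variation within groups, pooled over the 6 groups, had a median of 6.36% and was under 10% for 22 of the 32 genes. Hmgcs1, Idi1 and Fdft1 exceeded 20%, with 23.2% the highest, in Hmgcs1. The widest gap between replicates was that of Dhcr7 in CMV-miR-29b cells without TGF-β, where 1 library read 41.1 CPM and the other 2 read 91.2 and 88.1 CPM. Idi1 behaved likewise in CMV-miR-29b cells with TGF-β, at 191, 88.5 and 187 CPM. For such genes a change of the same size carried a larger error.

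In each of the 3 vectors some of the 32 genes were lower with TGF-β and none was higher. With a threshold of 0.05 on the Benjamini-Hochberg adjusted p over all 21161 genes, 17 of the 32 genes were lower in empty vector cells with TGF-β, where 2.01% of all genes tested were lower. In Col1a1-miR-29b cells 8 were lower (1.32% of all genes) and in CMV-miR-29b cells 12 (1.87%). The absence of higher genes stood against 3.88%, 3% and 3.08% of all genes that were higher in these vectors. Of the 8 genes of the mevalonate arm, 5, 4 and 5 were lower in empty vector, Col1a1-miR-29b and CMV-miR-29b cells, and of the 10 from squalene to cholesterol 7, 1 and 3. The median log2 fold change of the 32 genes was -0.40, -0.26 and -0.30 in empty vector, Col1a1-miR-29b and CMV-miR-29b cells, while that of all genes was 0.0023, -0.0056 and -0.0025. The count in empty vector cells fell to 11 without replicate e of the treated group, and to 10 when its 6 libraries were fitted alone.

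Since the 3 comparisons share no library, they were also averaged. In the mean of the 3 vectors 24 of the 32 genes were lower and none was higher, against 5.86% and 7.83% of all genes, with a median log2 fold change of -0.31 (-0.0054 over all genes). By vector, 8 genes were lower in all 3 (Acat2, Mvk, Pmvk, Fdps, Sc5d, Stard4, Elovl6 and Scd1; 0.685% of all genes tested met this), 4 in 2 vectors, 5 in 1 and 15 in none. The separation of the libraries was counted as well: every library with TGF-β lay below every library without it for 24 genes in empty vector cells, 18 for the Col1a1-miR-29b vector and 20 for CMV-miR-29b, where 9.69%, 10.2% and 9.89% of all genes did so. For 14 genes this held in all 3 vectors at once, against 2.11% of all genes.

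**Figure D2:**
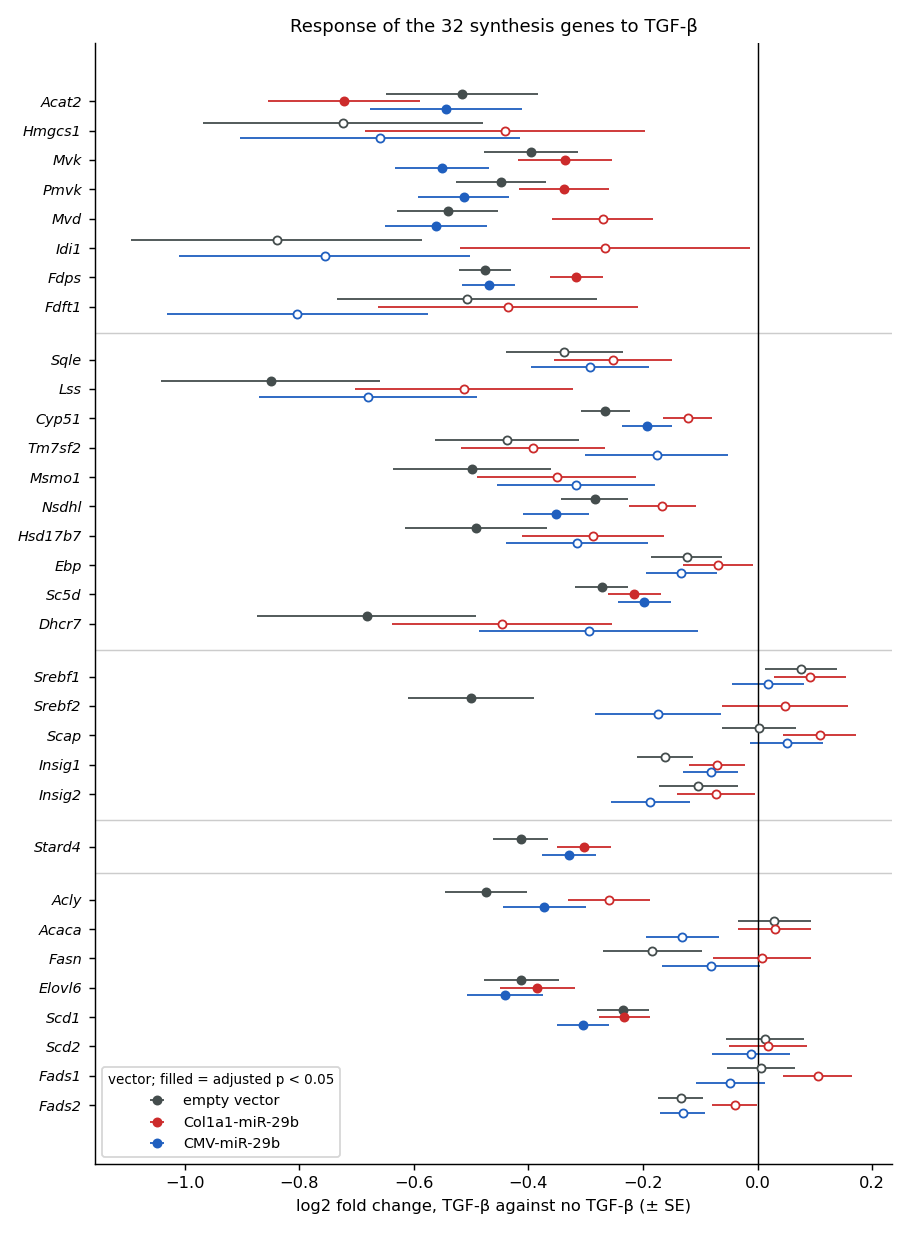
Log2 fold change with TGF-β against without it, ± SE, for each of the 32 genes in empty vector (grey), Col1a1-miR-29b (red) and CMV-miR-29b (blue) cells, grouped by role from the mevalonate arm at the top to fatty acid synthesis at the bottom. Filled points passed an adjusted p of 0.05, all of them below 0; 15 of the 32 genes, Srebf1, Scap, Scd2 and Fads1 among them, have no filled point.

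**Figure D3:**
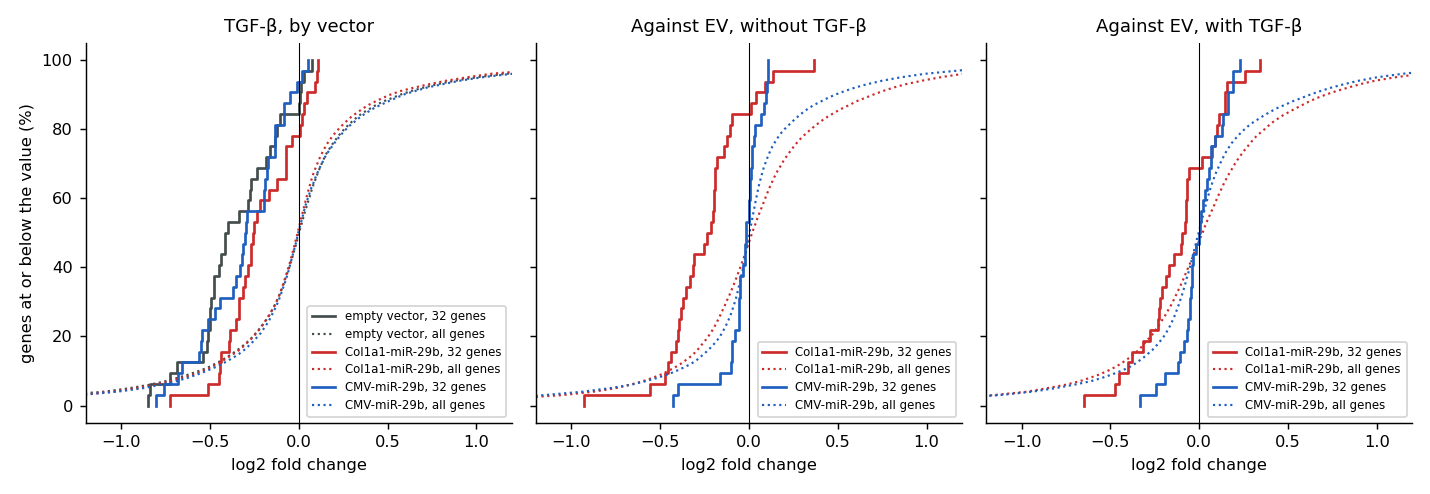
Percentage of genes at or below each log2 fold change, for the 32 genes (solid steps) and for all 21161 genes tested (dotted). For TGF-β the solid lines lie left of the dotted ones in the middle of the range in each vector, with medians of -0.40, -0.26 and -0.30. Against the empty vector, the Col1a1-miR-29b line without TGF-β is also shifted left, with a median of -0.23, and the CMV-miR-29b lines cross 0 near their middle.

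The mevalonate arm fell as a whole. All 8 of its genes were lower in the mean of the 3 vectors, with log2 fold changes between -0.62 and -0.42. Where no vector is named, the changes below are in that mean. Fdps, which makes farnesyl diphosphate, the last compound shared with protein prenylation, had the smallest p. It read 249, 239 and 235 CPM in the 3 empty vector libraries without TGF-β and 180.5, 171 and 169 CPM with it. In Col1a1-miR-29b cells Fdps went from 181, 169 and 170.1 to 141, 140.1 and 137 CPM, and in CMV-miR-29b cells from 237, 226 and 235 to 157, 172 and 175 CPM. The treated and untreated libraries did not overlap in any vector, and the mean log2 fold change, -0.42 (SE 0.026, adjusted p = 1.24e-08), was a fall of 25.3%. Pmvk, the second kinase of the arm, read 66.3, 64.3 and 65.4 against 48.8, 51.3 and 43.6 CPM in empty vector cells without and with TGF-β, 57.3, 60.8 and 53.6 against 47.6, 41.2 and 47.0 in Col1a1-miR-29b cells, and 62.8, 71.2 and 71.2 against 44.0, 48.9 and 50.8 in CMV-miR-29b cells. These groups were again apart in every vector, with a mean log2 fold change of -0.43 (SE 0.046, adjusted p = 5.66e-06).

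Mvk, which phosphorylates mevalonate, read 33.6, 30.4 and 33.3 CPM without and 24.8, 26.9 and 22.3 CPM with TGF-β in cells with the empty vector. The Mvk values were 33.0, 32.7 and 32.3 and 26.2, 26.3 and 25.2 CPM in Col1a1-miR-29b cells, and 34.7, 37.1 and 31.4 and 22.7, 21.8 and 25.9 CPM in CMV-miR-29b cells. No treated library reached an untreated one of its vector, and the mean log2 fold change was -0.43 (SE 0.048, adjusted p = 9.51e-06). Mvd, which turns mevalonate diphosphate into isopentenyl diphosphate, went from 72.9, 72.3 and 71.9 to 44.9, 59.1 and 45.2 CPM in empty vector cells. It went from 68.4, 62.0 and 61.0 to 53.1, 53.3 and 52.3 CPM in Col1a1-miR-29b cells and from 67.6, 78.3 and 71.8 to 48.0, 48.1 and 51.4 CPM in CMV-miR-29b cells. Mvd thus separated in all 3 vectors too (log2 fold change -0.46, SE 0.051, adjusted p = 9.51e-06), although it passed the threshold only in empty vector and CMV-miR-29b cells. In Col1a1-miR-29b cells Mvd had a value of -0.27 on that scale (adjusted p = 0.118).

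The other 4 genes of the arm had larger mean changes with larger errors. Acat2, the cytosolic thiolase that opens the route, had a log2 fold change of -0.59 (SE 0.077, adjusted p = 4.45e-05) and was lower in each vector. Hmgcs1, the HMG-CoA synthase, had one of -0.61 (SE 0.14, adjusted p = 0.00763), Idi1, the isopentenyl diphosphate isomerase, one of -0.62 (SE 0.15, adjusted p = 0.00855), and Fdft1, the squalene synthase, one of -0.58 (SE 0.13, adjusted p = 0.00616). Of these 3, which were the most variable between replicates, none passed the threshold in a single vector.

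In the steps from squalene to cholesterol, 9 of 10 genes were lower in the mean of the 3 vectors, with log2 fold changes from -0.68 for Lss to -0.19 for Cyp51. Ebp, the sterol isomerase, was the exception at -0.11 (adjusted p = 0.0558). Sc5d, a desaturase near the end of the route, read 182, 198 and 189 CPM in empty vector cells without TGF-β and 155, 165 and 152 with it, 174, 171 and 178 and 139.9, 152 and 158 in Col1a1-miR-29b cells, and 192, 184 and 186 and 164, 163 and 163 in CMV-miR-29b cells. Its groups did not overlap in any vector, and it was the 1 gene of these 10 called lower in all 3 (log2 fold change in their mean -0.23, SE 0.027, adjusted p = 1.66e-05). Nsdhl, a dehydrogenase that removes the methyl groups at carbon 4, went from 77.4, 77.0 and 69.8 to 60.5, 62.0 and 61.5 CPM, from 58.7, 53.8 and 58.1 to 51.9, 51.8 and 48.4 CPM and from 77.3, 69.8 and 77.4 to 56.0, 59.1 and 60.8 CPM in the same order of vectors. Nsdhl libraries were likewise separate throughout (log2 fold change -0.27, SE 0.033, adjusted p = 3.16e-05).

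Cyp51, the lanosterol demethylase, was among the most abundant of the set and moved little. It read 458, 485 and 450.2 against 375, 409 and 374 CPM in empty vector cells, 376, 359.6 and 355 against 326, 338 and 337 CPM in Col1a1-miR-29b cells and 459, 428 and 454 against 394, 395 and 384 CPM in CMV-miR-29b cells. The replicates were close enough for this fall of 12.6% to be called (log2 fold change -0.19, SE 0.025, adjusted p = 4.07e-05). Lss, which closes squalene epoxide into lanosterol, had the largest fall of all 32 genes in the mean of the 3 vectors. It went from 326, 315 and 315 to 184, 223 and 123 CPM in empty vector cells, from 241, 245 and 234 to 177, 163 and 164 in Col1a1-miR-29b cells and from 208, 334 and 312 to 139, 199.6 and 195 in CMV-miR-29b cells. The untreated and treated groups did not overlap, with a mean log2 fold change of -0.68 (SE 0.11, adjusted p = 0.000397), although Lss passed the threshold in empty vector cells alone. The other genes called in this arm, Sqle, Tm7sf2, Msmo1, Hsd17b7 and Dhcr7, had log2 fold changes of -0.29, -0.34, -0.39, -0.36 and -0.47 in the mean of the 3 vectors.

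Of the 5 genes of the switch, Srebf2 and Insig1 were lower in the mean of the 3 vectors. The call of Srebf2 (log2 fold change -0.21) was lost under 4 of 11 alternatives and kept in only 5 of the 18 fits that left out a library. Insig1, the retention protein that is itself a target of SREBP, read 266, 279.6 and 272 CPM without TGF-β and 235, 256 and 239.7 with it in empty vector cells, 233, 251 and 234 and 234, 221 and 228 in Col1a1-miR-29b cells, and 255, 280.5 and 264 and 261, 238 and 256 in CMV-miR-29b cells. The groups overlapped in both miR-29b vectors, and its fall was 7.01% (log2 fold change -0.10, SE 0.028, adjusted p = 0.0193). Srebf2, the isoform that chiefly drives cholesterol synthesis, went from 297, 307 and 289.7 to 254, 191 and 187 CPM in empty vector cells. In Col1a1-miR-29b cells it read 179.8, 247 and 232 without TGF-β and 236, 228 and 218 CPM with it, and in CMV-miR-29b cells 286, 283 and 267 and 258, 242 and 241 CPM. Srebf2 was therefore lower in empty vector cells (log2 fold change -0.50, SE 0.11, adjusted p = 0.0116) and showed no separation in Col1a1-miR-29b cells, with a log2 fold change of 0.05 (95% interval -0.19 to 0.28). In CMV-miR-29b cells the Srebf2 libraries separated in the lower direction, but no change was called. Srebf1, which chiefly drives fatty acid synthesis, and Scap had mean log2 fold changes of 0.06 (95% interval -0.01 to 0.14) and 0.05 (-0.02 to 0.13), and Insig2 one of -0.12 (adjusted p = 0.0556).

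Stard4, which carries cholesterol between membranes, fell in each of the 3 vectors. Its libraries read 266, 292 and 270.4 against 199.9, 221 and 202 CPM in empty vector cells, 241, 238 and 235 against 182, 201 and 196 CPM in Col1a1-miR-29b cells and 270.4, 264 and 263 against 215, 214 and 206 CPM in CMV-miR-29b cells. With TGF-β every library was below every untreated one of its vector, and the mean log2 fold change was -0.35 (SE 0.027, adjusted p = 1.85e-07).

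Fatty acid synthesis held genes that fell and genes without a call. Of its 8 genes, Acly, Elovl6, Scd1 and Fads2 were lower in the mean of the 3 vectors. Elovl6 went from 57.4, 56.4 and 57.0 to 39.2, 44.0 and 45.1 CPM in empty vector cells, from 52.6, 48.8 and 47.7 to 37.5, 39.4 and 37.1 in Col1a1-miR-29b cells and from 59.6, 51.1 and 53.6 to 38.8, 41.2 and 40.9 in CMV-miR-29b cells. This was a mean fall of 24.9% with no overlap in any vector (log2 fold change -0.41, SE 0.038, adjusted p = 1.17e-06). Scd1, a desaturase that makes oleate, read 375, 378 and 338 and 315, 302 and 310.1 CPM without and with TGF-β in empty vector cells, 273, 269 and 253 and 222, 223 and 231 in Col1a1-miR-29b cells, and 366, 343 and 344 and 285, 287 and 281 in CMV-miR-29b cells. It too separated everywhere (log2 fold change -0.26, SE 0.026, adjusted p = 3.36e-06).

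Acly went from 853, 890.4 and 867 to 587, 716 and 576 CPM in empty vector cells, from 784, 762 and 728 to 659, 625 and 617 in Col1a1-miR-29b cells and from 862, 977 and 834 to 678, 691 and 697 in CMV-miR-29b cells. All treated libraries of Acly were below the untreated ones (log2 fold change -0.37, SE 0.041, adjusted p = 1.05e-05). Fads2, the first desaturase of polyunsaturated fatty acids, moved by only 6.80%, from 448, 424 and 423 to 393, 408 and 379 CPM in empty vector cells, from 371, 379.6 and 348 to 360.0, 350.1 and 358 CPM in Col1a1-miR-29b cells and from 437, 439 and 418 to 399, 392 and 391 CPM in CMV-miR-29b cells. Its libraries overlapped in Col1a1-miR-29b cells alone (log2 fold change -0.10, SE 0.023, adjusted p = 0.00582). In the other 4 genes a change was not called, and for 3 of them the interval was narrow: the mean log2 fold change was 0.01 (95% interval -0.08 to 0.09) for Scd2, 0.02 (-0.05 to 0.09) for Fads1 and -0.02 (-0.10 to 0.05) for Acaca. Fasn, the fatty acid synthase, had a mean of -0.09 (-0.19 to 0.02).

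**Figure D4:**
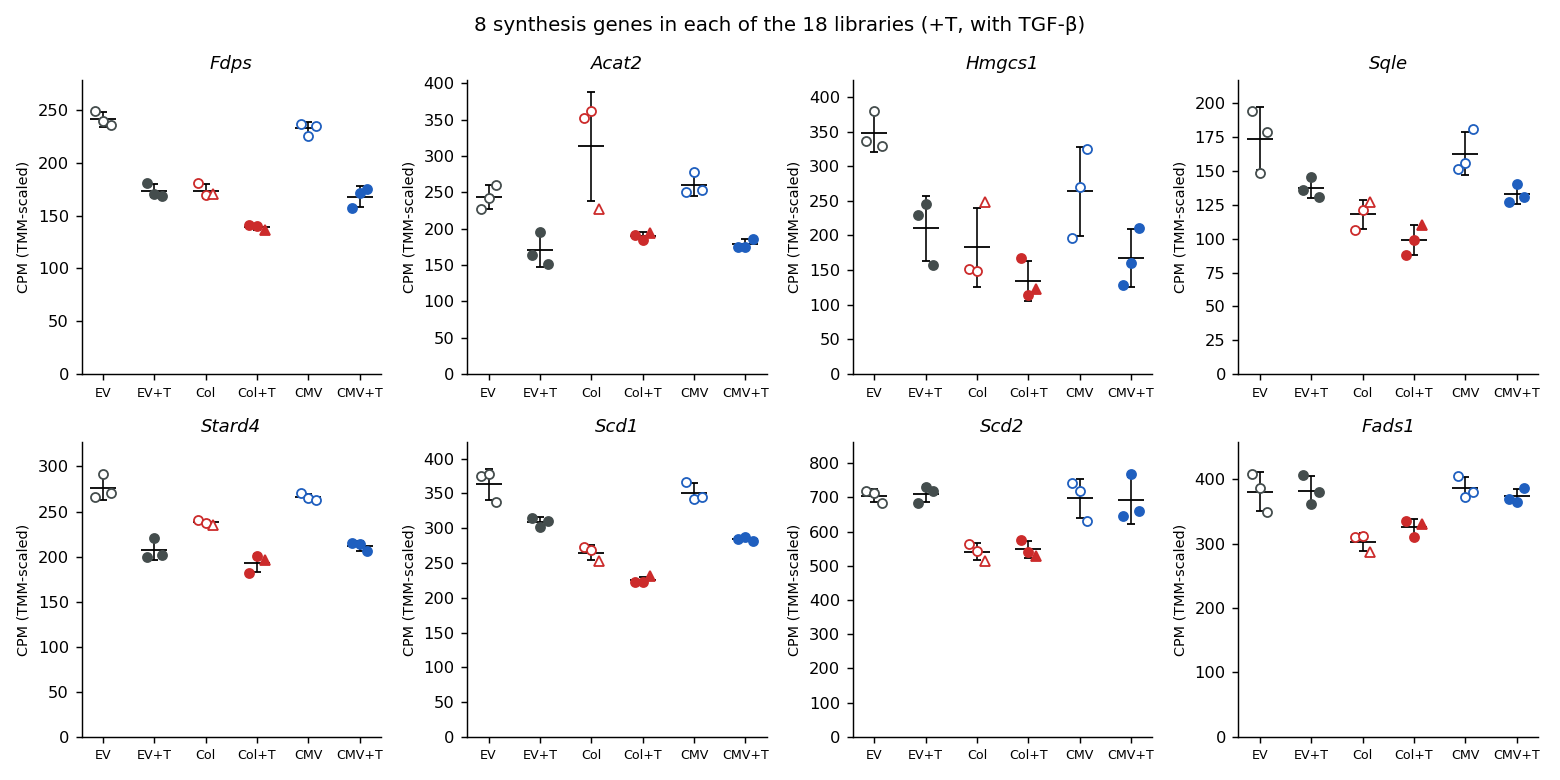
CPM of 8 of the genes in each of the 18 libraries, open without TGF-β and filled with it (+T), in empty vector (EV, grey), Col1a1-miR-29b (Col, red) and CMV-miR-29b (CMV, blue) cells, with mean ± SD in black. Triangles are the 2 libraries whose letter is in no sample title, called unlettered here. Fdps, Stard4 and Scd1 drop with TGF-β in every vector, Scd2 and Fads1 do not, and the red points of Fdps, Sqle, Scd1, Scd2 and Fads1 lie below the grey ones of the same treatment.

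Whether the vectors changed the response to TGF-β was asked with the difference of the responses. No gene of the whole table passed the threshold for Col1a1-miR-29b minus empty vector (0% of all genes) or for CMV-miR-29b minus empty vector (0%) in edgeR, and none of the 32 did so in DESeq2. At an unadjusted p under 0.05 there were 4 of the 32 genes in the former (Mvd, Fdps, Cyp51 and Srebf2; 4.54% of all genes) and 0 in the latter (5.34%). In Col1a1-miR-29b cells the response was less negative than in empty vector cells for 31 of the 32 genes, where 48.6% of all genes lay above 0, with a median difference of 0.10, and Srebf2 had the smallest p (difference 0.55, 95% interval 0.22 to 0.88, adjusted p = 0.921). In CMV-miR-29b cells the median difference was 0.02, with 14 genes below 0. These differences share their empty vector libraries. A different response was thus not called for any single gene, with intervals that leave room for one in the variable genes, such as -0.19 to 1.34 for Idi1.

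The summed level of 12 interferon-response genes moved with the conditions. It ran from 1542 to 1617 CPM in untreated empty vector cells and from 1322 to 1490 CPM with TGF-β, from 2082 to 2284 and from 1827 to 2137 CPM in Col1a1-miR-29b cells, and from 1615 to 1966 and from 1341 to 1479 CPM in CMV-miR-29b cells. It was higher in every Col1a1-miR-29b library than in every empty vector library of the same treatment. The summed fibroblast markers, collagens among them, were lower in both miR-29b vectors than in empty vector cells. Without TGF-β the sums were 3123 to 3506 CPM (Col1a1-miR-29b), 3524 to 4067 CPM (CMV-miR-29b) and 4073 to 4491 CPM (empty vector). With TGF-β they were 5045 to 5177, 5592 to 6207 and 6646 to 7641 CPM in the same order. The part of the interferon genes or of these markers in the results on the synthesis genes was not tested.

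Without TGF-β, 14 of the 32 genes were lower in Col1a1-miR-29b than in empty vector cells, against 3.7% of all genes tested, and none was higher, against 2.57%. They were Hmgcs1 and Fdps, Sqle, Cyp51 and Nsdhl, Srebf2, Insig1 and Insig2, Stard4, and the fatty acid genes Acaca, Scd1, Scd2, Fads1 and Fads2. Of 12 alternatives, Srebf2 lost its call under 6, Insig1 and Insig2 under 7 each and Stard4 under 4, and the genes called under all of them and without any 1 library were Acaca, Cyp51, Fdps, Nsdhl, Scd1 and Sqle. The median log2 fold change of the 32 was -0.23, and that of all genes 0.02. For 24 of them the 3 Col1a1-miR-29b libraries all lay below the 3 empty vector libraries, as for 14.1% of all genes. This is the comparison in which untreated Col1a1-miR-29b cells held 0 to 1 counts of Mir29b-1. Those are counts of precursor transcripts, and they do not measure the mature microRNA. Its part in this comparison was not tested.

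Fdps, Scd1 and Cyp51 had the smallest p. The Fdps libraries listed above, 249, 239 and 235 CPM in empty vector and 181, 169 and 170.1 CPM in Col1a1-miR-29b cells, had a log2 fold change of -0.47 (SE 0.046, adjusted p = 0.000145). Scd1 read 375, 378 and 338 against 273, 269 and 253 CPM (log2 fold change -0.46, SE 0.045, adjusted p = 0.000145), and Cyp51 458, 485 and 450.2 against 376, 359.6 and 355 CPM (log2 fold change -0.35, SE 0.043, adjusted p = 0.000845). In none of these 3 genes did a Col1a1-miR-29b library reach an empty vector one. Hmgcs1 had the largest change, from 336, 379 and 329 to 152, 148 and 248 CPM (log2 fold change -0.93, SE 0.25, adjusted p = 0.0369). The last of these values is that of the library called unlettered here, because its letter is in no sample title.

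Acaca, Scd2 and Fads1, for which no change with TGF-β was called, were among the genes that differed between these vectors. Acaca read 117, 123 and 109.7 CPM in empty vector and 90.5, 87.9 and 86.1 CPM in Col1a1-miR-29b cells. Scd2 read 719, 712 and 684 and 565, 543 and 515 CPM, and Fads1 408, 386 and 349 and 310.1, 312 and 287 CPM. All 3 separated without overlap, with log2 fold changes of -0.40, -0.38 and -0.33. In contrast, Acat2 had the largest value above 0, 0.36 (adjusted p = 0.116), with libraries at 228, 243 and 260.1 CPM in empty vector and 352, 362 and 227 CPM in Col1a1-miR-29b cells, where the low library is the unlettered one. Without the unlettered libraries Acat2 was called higher, at 0.55 (adjusted p = 0.0145), and 10 genes were lower in place of 14. The count was 9 without empty vector replicate d, and 8 with limma on log2(FPKM + 1), of which Acat2 was higher.

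With TGF-β, 10 of the 32 genes were lower in Col1a1-miR-29b than in empty vector cells, against 7.63% of all genes, and none was higher, against 5.31%. All 10 were among the 14 above (10 of 14 and 10 of 10), and 3% of all genes were lower in both comparisons, which share no library. Of 12 alternatives with TGF-β, Insig2 lost its call under 8, Fads2 under 4, Fads1 under 3 and Cyp51 and Nsdhl under 2 each. The genes called under all of them and without any 1 library were Acaca, Fdps, Scd1, Scd2 and Sqle. Scd1 had the smallest p, at 315, 302 and 310.1 against 222, 223 and 231 CPM (log2 fold change -0.45, SE 0.045, adjusted p = 0.000147). Fdps read 180.5, 171 and 169 and 141, 140.1 and 137 CPM (log2 fold change -0.32, SE 0.046, adjusted p = 0.000845), and Acaca 116, 115 and 126 and 92.1, 92.0 and 86.0 CPM (log2 fold change -0.40, SE 0.064, adjusted p = 0.00129). For these 3 the groups were apart. Over the 32 genes, the groups were apart in the lower direction for 13, against 15.2% of all genes, and the median was -0.09 (0.02 over all genes). With length and GC content as offsets in the fit, added after the data were seen, 11 were lower and Hsd17b7 (0.42, adjusted p = 0.0456) and Fasn (0.25, adjusted p = 0.0490) were higher. The 4 genes called without TGF-β alone had log2 fold changes of -0.65 (Hmgcs1), 0.11 (Srebf2), -0.10 (Insig1) and -0.10 (Stard4) with it.

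**Figure D5:**
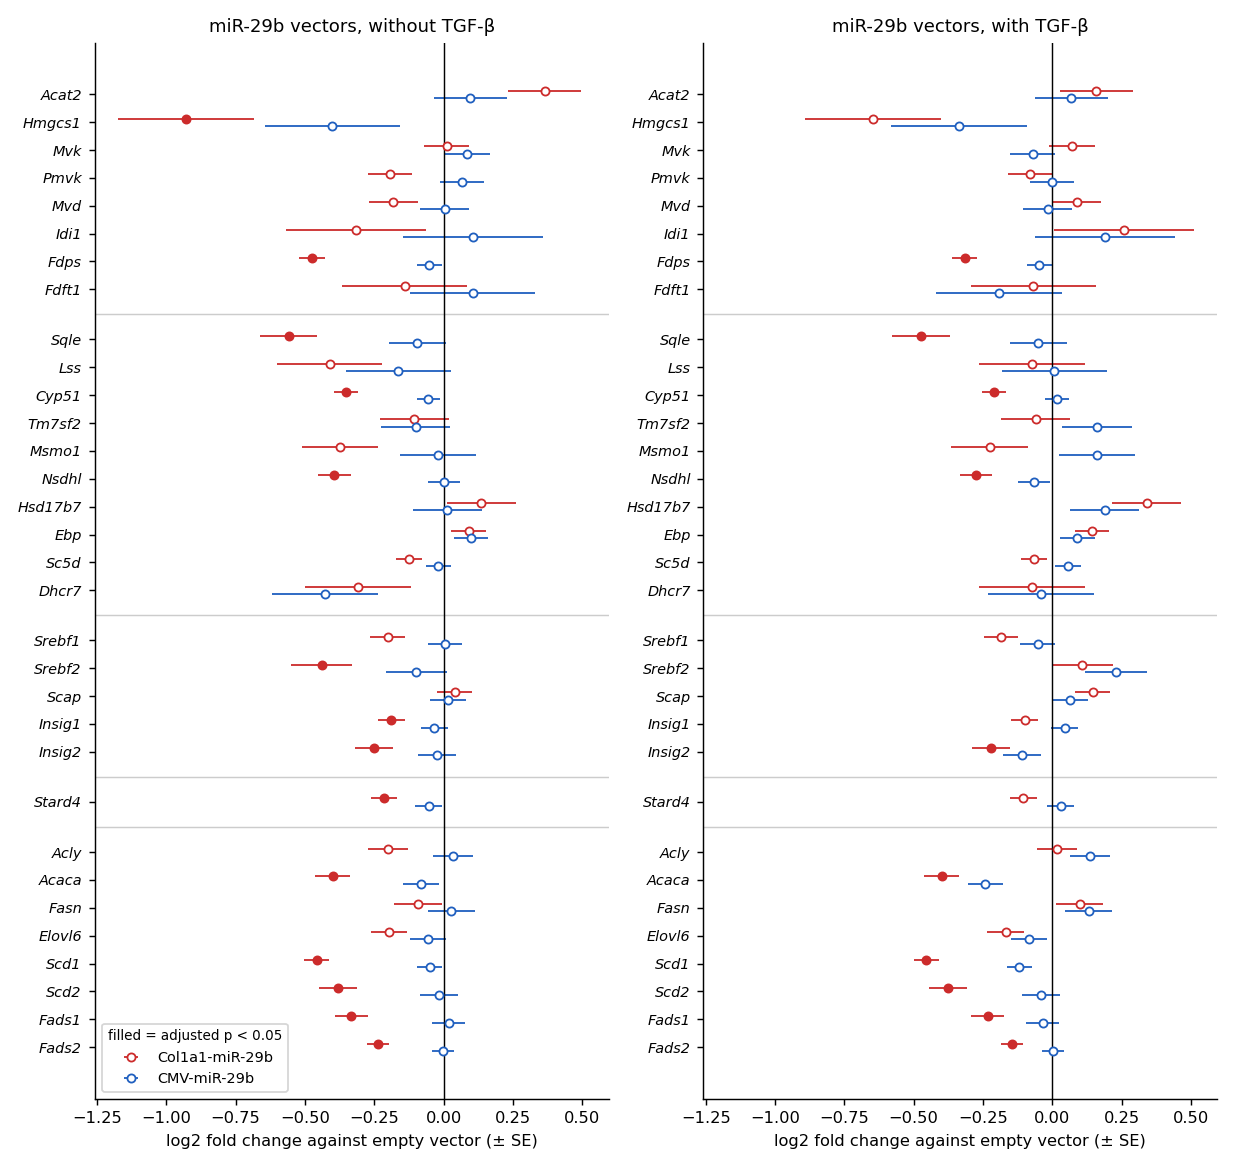
Log2 fold change against the empty vector, ± SE, of each of the 32 genes in Col1a1-miR-29b (red) and CMV-miR-29b (blue) cells, without TGF-β (left) and with it (right); filled points passed an adjusted p of 0.05. Red points lie mainly left of 0, 14 of them filled without TGF-β and 10 with it, and no blue point is filled.

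In CMV-miR-29b cells, in which Mir29b-1 was highest, none of the 32 genes was called against the empty vector without TGF-β, where 0.00473% of all genes were, or with it, where 0.00945% were. At an unadjusted p under 0.05 there were 1 and 2 of the 32 genes, against 5.46% and 12% of all genes, and DESeq2 called 0 and 1, the latter being Acaca. The median log2 fold changes were -0.02 and 0.0010, and the libraries separated in the lower direction for 3 and 2 genes, against 5.15% and 8.01% of all. For 29 of the 32 genes without TGF-β, and 30 with it, the 95% interval did not reach -0.5. Fdps read 237, 226 and 235 CPM here, beside the 249, 239 and 235 CPM of the empty vector (log2 fold change -0.05, 95% interval -0.15 to 0.05), and Scd1 366, 343 and 344 CPM (-0.05, -0.15 to 0.05).

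The miR-29b vectors were therefore compared directly, a test added after these values were seen. Without TGF-β, 9 of the 32 genes were lower in Col1a1-miR-29b than in CMV-miR-29b cells (Fdps, Sqle, Cyp51, Nsdhl, Acaca, Scd1, Scd2, Fads1 and Fads2; 1% of all genes) and none was higher (0.803%). With TGF-β, 5 were lower (Fdps, Sqle, Cyp51, Scd1 and Scd2; 1.02%) and none higher (0.912%). The largest of these differences was that of Sqle, the squalene epoxidase, with a log2 fold change of -0.46 (SE 0.10, adjusted p = 0.0370) without TGF-β, where its libraries read 106, 121 and 127 CPM in Col1a1-miR-29b and 151, 156 and 181 CPM in CMV-miR-29b cells. Its groups did not overlap. The counts depended on single libraries: leaving out a library gave between 4 and 10 genes without TGF-β (4 without CMV-miR-29b replicate c) and between 1 and 5 with it (1 without the unlettered Col1a1-miR-29b library or without CMV-miR-29b replicate d, 2 without Col1a1-miR-29b replicate c or d, and 3 without CMV-miR-29b replicate c). With both unlettered libraries left out they were 4 and 1, and in a fit of the compared libraries alone 1 and 1.

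Genes with and without a site for miR-29b can be set side by side. In untreated Col1a1-miR-29b cells, 4 of the 5 genes with a site were lower (median log2 fold change -0.35), as were 10 of the 27 without one (-0.21), and with TGF-β the counts were 2 of 5 and 8 of 27. Of all genes tested, 3.7% were lower without TGF-β and 7.63% with it. Of the 4 genes, Insig1 and Hmgcs1 lost their calls under 7 and 3 of 12 alternatives, and Cyp51 and Scd1 under 0. In CMV-miR-29b cells none of either kind was called, and the medians for the 5 genes were -0.05 and -0.12. Genes with a CCAAT box in the promoter were lower with TGF-β in 16 of 20 cases and those without one in 3 of 5, in the mean of the 3 vectors, where 5.86% of all genes were lower. In the same comparison, Hmgcs1, the bearer of the SRE core shown above, was 1 of 24 genes that fell. These counts are descriptions of small lists.

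Other genes of lipid metabolism were followed in 3 lists, of which 35 of 36 genes were tested. Among 14 further synthesis enzymes, 8 were lower and none higher with TGF-β in the mean of the 3 vectors, against 5.86% and 7.83% of all genes. Acss2, which makes acetyl-CoA from acetate, had the largest change (log2 fold change -0.86, SE 0.046, adjusted p = 1.98e-09), larger than that of any of the 32 genes, and was lower in each vector. Lpin1, a phosphatidate phosphatase, and Pcyt2, of phosphatidylethanolamine synthesis, were also lower in each, with mean changes of -0.49 and -0.47. Aacs (-0.25), Acacb (-0.22) and Acsl1 (-0.33) were also among those lower in the mean.

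In the list of SREBP processing and turnover, Erlin1 was lower and Trib1 higher with TGF-β in the mean of the 3 vectors, out of 9 genes. In that of sterol uptake, efflux and oxysterols 3 of 12 were lower (Abca1, Tmem97 and Lpcat3) and none was higher. Of all genes, 5.86% were lower and 7.83% higher in this mean. Col1a1-miR-29b cells without TGF-β had 6 of the 14 synthesis enzymes below the empty vector (3.7% of all genes) and none above (2.57%), among them Acss2, Acacb, Acsl3, Lpin1 and Pcyt2. The other lists went both ways there: Mbtps1, a protease that cuts SREBP, and Abca1, the cholesterol exporter, were lower, at -0.20 and -0.62. Erlin2, Trib1, Npc2 and Mylip, a ligase that degrades lipoprotein receptors, were higher, at 0.21, 0.54, 0.15 and 0.49. CMV-miR-29b cells had none of the 35 genes called against the empty vector with either treatment in edgeR. Without and with TGF-β, 1 and 4 of the 35 had an unadjusted p under 0.05, against 5.46% and 12% of all genes.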

How the data were processed

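Poly(A) RNA of mouse embryonic fibroblasts was sequenced in 18 libraries, 3 in each of 6 groups. Per the labels and the study's methods, the authors trimmed reads with cutadapt, aligned them with HISAT2 and assembled transcripts with StringTie. The labels name mm9, whereas the study's methods name an Ensembl release of the mouse genome for the alignment. The gene coordinates of 27 of the 32 genes, and of 52506 of 55450 genes in all, equal those of GENCODE release M21 on GRCm38. How the counts were taken is not given in the sources used here. The deposited table holds whole-number counts per gene and FPKM values that the authors computed per transcript length and depth. The study's methods call the input of DESeq2 normalized counts. Many low counts were multiples of 4, as for Adipoq (4, 4, 4 and 6 in the libraries that had any). Whether each unit of a count is a separate read is not given in the sources used here.

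The counts were analysed as deposited with edgeR 4.0.16 in R 4.3.3 (filterByExpr, TMM scaling, quasi-likelihood F test with 1 mean per group over all 18 libraries), and p-values were adjusted by Benjamini and Hochberg over 21161 genes, with calls at an adjusted p under 0.05. The fit was also run on simulated counts, with known changes set for TGF-β alone and the spread taken from the fit itself. That run does not bear on the vector comparisons or on how the deposited counts were made. Total counts per library ran from 65898017 to 80332633 with a median of 74155860, and Pearson's r between replicates (log2 CPM) from 0.992 to 0.993. Groups were taken from the sample descriptions, and columns were matched by title. The third library of both Col1a1-miR-29b groups carries a letter in the table that no title has, so it entered by its group alone, and its 2 FPKM columns were not used. FPKM values served for levels (16 libraries) and for limma 3.58.1 on log2(FPKM + 1) and log2(FPKM + 0.1). Other alternatives were DESeq2 1.42.0, edgeR with DESeq2's size factors or with total counts as the scale, minimum counts of 1 in any or 10 in every library, the compared groups alone, the replicate letter as a block, counts divided by 4, and leaving out each library. Offsets for length and GC content, leaving out the 2 unlettered libraries, and the comparison of the miR-29b vectors were added after the data were seen.

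The 32 genes and all other lists were chosen with earlier results of these data known. Values in every library are given for genes called in a comparison, at most the 4 with the smallest p of each role for TGF-β and the 3 with the smallest p for each vector comparison. Those of Hmgcs1, Acat2, Sqle, Scd2, Fads1, Dhcr7 and Idi1 were added after they were seen.

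Some genes of the other lists are counted but not reported here by name.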

Additional observations from a re-analysis of the deposited data

How the results depend on the processing

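No called gene changed direction under any alternative run, and counts not given here stayed within 1.5 times those above. The 17 genes lower with TGF-β in empty vector cells became 10 with the compared groups alone. Against the empty vector, Col1a1-miR-29b cells had 8 genes called without TGF-β with limma on log2(FPKM + 1) and 8 on log2(FPKM + 0.1), and 6 and 5 with TGF-β, from 2 libraries of that vector per group. CMV-miR-29b cells with TGF-β had 1 gene called in DESeq2. Between the miR-29b vectors, without and with TGF-β, 16 and 8 genes were called in DESeq2, 1 and 1 with the compared groups alone, 3 and 1 with limma at either pseudocount, and 4 and 1 without the 2 unlettered libraries.

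Leaving out 1 library at a time gave 11 to 20 genes for TGF-β in empty vector cells, 6 to 10 in Col1a1-miR-29b cells, 9 to 14 in CMV-miR-29b cells and 23 to 26 in the mean. For Col1a1-miR-29b against the empty vector the range was 9 to 16 without and 7 to 12 with TGF-β, and between the miR-29b vectors 4 to 10 and 1 to 5. Against the empty vector, CMV-miR-29b cells had 0 in every case. Some genes were called higher in Col1a1-miR-29b than in empty vector cells in these runs. Without TGF-β this was Acat2 with limma, with the block and without the unlettered library (log2 fold changes from 0.54 to 0.58). With TGF-β, Hsd17b7 was called in DESeq2 (0.34), and Hsd17b7, Mvd and Scap without replicate d of the empty vector (0.55, 0.23 and 0.22). Offsets for length and GC content gave Hsd17b7 and Fasn with TGF-β (0.42 and 0.25).

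With the replicate letter as a block (replicate block, unlettered libraries left out), 15, 4, 12 and 20 genes were called for TGF-β in empty vector, Col1a1-miR-29b and CMV-miR-29b cells and in the mean, 9 and 8 for Col1a1-miR-29b against the empty vector without and with TGF-β, and 2 and 1 between the miR-29b vectors. Whether libraries with the same letter came from the same experiment is not given in the sources used here. The mean correlation of deviations was 0.0061 over 36 pairs with the same letter and -0.0033 over 70 pairs with different letters. These means cannot settle whether the libraries were paired. The cause of these shifts was not tested.

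Under every alternative and left-out library, 20 of the 24 genes called in the mean of the 3 vectors kept their call (all but Hmgcs1, Idi1, Insig1 and Srebf2). The same held for 6 of 17, 3 of 8 and 9 of 12 genes for TGF-β by vector, and for 6 of 14 and 5 of 10 for Col1a1-miR-29b against the empty vector. The 3 libraries a group left wide intervals for Hmgcs1, Idi1 and Fdft1.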
